A study of Drosophila melanogaster with 3 samples.

Results

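Labial ChIP-seq summits lying 501 to 2000 bp from the nearest transcription start site of a protein-coding gene, outside core promoters but close to a gene, are described here. A summit counted as a member when it also lay off every coding and untranslated exon base of protein-coding genes. The summit is the base of highest signal within a peak, and start sites came from Ensembl release 115. Of the 10160 peaks that passed the authors' irreproducible discovery rate (IDR) threshold on the pooled data, 2091 were members (20.6%, exact 95% binomial interval 19.8% to 21.4%). Of these, 961 lay upstream of the nearest start site and 1130 downstream of it. Another 3581 summits lay within 500 bp of a start site (promoter summits), 4242 lay more than 2000 bp away off exons (distal summits), and 246 lay on exons beyond the promoter.

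The samples form 1 group of 3 biological replicates of Drosophila melanogaster. The material was whole embryos collected over the span of 0 to 24 h, males and females pooled, of 1 transgenic line that stably expresses the homeotic protein Labial (lab) with GFP at its C terminus. Chromatin was sheared by sonication to 200 to 800 bp and precipitated with an antibody against GFP. The embryos mix all stages and cell types, so a peak does not say in which cells the fusion was bound. The labels used here do not say which promoter drives the fusion, and embryos without it were not analysed here. No contrast between conditions exists, and the comparisons below are between positions in the genome, each taken within every replicate's own list.

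Labial is the most anterior Hox protein of the fly and patterns parts of the head and the midgut. Hox proteins have homeodomains with similar preferences for AT-rich DNA, and their cofactors Extradenticle (Exd) and Homothorax (Hth) bind beside them and sharpen the sites they prefer. Enhancers, the elements through which such factors act on a gene, often lie upstream of a promoter or in the first introns, the region covered by these members.

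The sequences at the summits of the strongest members are shown because these peaks stood near the top of the list in every replicate. Each is the plus strand of dm6 within 14 bp of the summit, read from the NCBI Release 6 genome, with the cbt member at 2L:481043-481071, the Lk6 member at 3R:11761032-11761060, the CG11050 member at 2L:6612701-6612729, the Trl member at 3L:14759504-14759532 and the CG32772 member at X:4910347-4910375. No base is in capitals, since none of the 18 motifs searched matched these 29 bases.
cbt: tctgaaaagtttaagttttatttttcttc
Lk6: gtggcacataaactaaacgtatttcactg
CG11050: taatacaagattagattttgtattgcttt
Trl: actattttttccattggctagtttttata
CG32772: aaaaatttaaagttaagcggttataaaac
The wider windows of 121 bp around these summits were AT-rich, with 32.2% GC at cbt, 31.4% at Lk6, 22.3% at CG11050, 28.9% at Trl and 29.8% at CG32772. They held an Exd-Lab site at Lk6, a homeodomain core and a GATA site at CG11050 and an Hth site at CG32772. The cbt and Trl windows held none of the 18, which says only that these letters are absent from the 121 bases.

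The Exd-Lab site, the sequence that Labial binds together with Exd, was searched as TGATTGAT and TGATGGAT on both strands. It lay within 100 bp of the summit in 88 members, and the 6 strongest of these are shown with 11 bases on either side of the site, which is in capitals. Each is written in the orientation in which the site begins with TGAT. The dm6 positions, credited to the same genome, are the Lk6 site at 3R:11760986-11761015 (plus strand), the Girdin site at 3L:3179717-3179746 (minus strand), the hog site at X:14717476-14717505 (minus strand), the PGRP-SA site at X:11560441-11560470 (plus strand), the Tsp97E site at 3R:26963917-26963946 (plus strand) and the Syt1 site at 2L:2801215-2801244 (plus strand).
Lk6: gttgtggcataTGATTGATttttaacggtt
Girdin: tatgatacataTGATTGATatgattataaa
hog: gaatgactcacTGATGGATtggccgactgc
PGRP-SA: ttaataatatcTGATTGATctgctcgtaca
Tsp97E: ctatttgatggTGATTGATgctttagatca
Syt1: tcgatcgcggaTGATTGATgattgaagcga
The hog member carried the TGATGGAT form and the other 5 the TGATTGAT form. The Syt1 site lay 9 bp from its summit, the Tsp97E site 89 bp, and the other 4 lay 45 to 57 bp away.

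The GATA site, bound by zinc finger factors of the GATA family, is shown because its share in members was above that in both other classes of summit in every replicate. Some other motifs, named below, also were above both classes in every replicate. The 6 strongest members with such a site within 100 bp of the summit are given with 12 bases on either side, the site nearest the summit in capitals and in the orientation AGATAA or else TGATAA. The positions are the CG11050 site at 2L:6612717-6612746 (minus strand), the CG9837 site at 3R:8811618-8811647 (minus strand), the NFAT site at X:13640548-13640577 (minus strand), the norpA site at X:4325064-4325093 (plus strand), the Reph site at 2L:3804688-3804717 (minus strand) and the for site at 2L:3655883-3655912 (plus strand).
CG11050: tgtaaaactaaaTGATAAaagcaatacaaa
CG9837: tctaaatatataAGATAAcgctttcgtcca
NFAT: ggcacggtttttTGATAAaaactgttagtg
norpA: ccactgtacttgAGATAAaagttctccgtt
Reph: atcggatttttcAGATAAcattccatacaa
for: tctggcttaataTGATAAtttaagtcgagc
The CG11050, NFAT and for sites had the TGATAA form and the other 3 the AGATAA form. The CG11050 site lay 17 bp from the summit and the norpA site 98 bp.

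Members were more densely packed downstream than upstream of start sites, except in the bin nearest to the start site. Upstream members made up 46.0% of all members (exact 95% binomial interval 43.8% to 48.1%). The interval treats peaks as independent and does not cover the choice of rule. The share was 35.6% with 1 start site per gene and 51.5% in the window of 501 to 1000 bp. Equal amounts of eligible sequence, 8.19 Mb on each side, held 117 summits per Mb upstream and 138 per Mb downstream. The replicates' own lists gave 116, 114 and 116 summits per Mb upstream and 137, 132 and 142 downstream, so the sides did not overlap. Over both sides, members had a mean density of 126 ± 2.95 summits per Mb (SD, n = 3), against 241 ± 11.6 at promoters and 54.3 ± 2.87 in distal sequence.

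Along the upstream side the density was 159.9 summits per Mb at 501 to 750 bp, 109 at 751 to 1000 bp and 100.4 at 1751 to 2000 bp. Along the downstream side it was 148 per Mb at 501 to 750 bp, 154 at 751 to 1000 bp, 141 at 1251 to 1500 bp and 119 at 1751 to 2000 bp. In the IDR list the upstream density thus dropped mainly after the first bin, while the downstream side declined more gradually. In the first bin the replicate means were 149 ± 8.02 upstream and 151 ± 7.09 downstream (SD, n = 3), and these overlapped. In the next bin they were 115 ± 1.96 upstream and 158 ± 3.39 downstream and did not overlap.

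**Figure D1:**
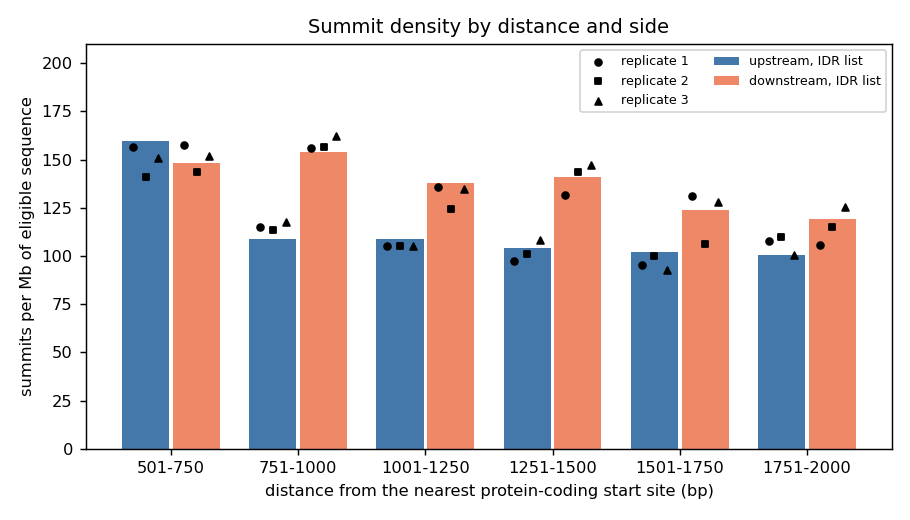
Summits per Mb of eligible sequence (vertical axis) in 6 bins of distance from the nearest protein-coding start site (horizontal axis), upstream beside downstream. Bars are the IDR list and symbols the 3 replicates' own lists. Beyond 750 bp the downstream bars, from 154 down to 119 per Mb, stand above the upstream bars, from 109 down to 100.4 per Mb.

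The limits of the window cut through a continuous distribution. The 10 summits at 501 to 503 bp had a median signal of 317, and the 3 at 498 or 499 bp, just inside the promoter class, had a median of 396. At the far limit, the 2 summits at 1998 and 2000 bp were those near CG4576 with a signal of 235.3 and pot with 901.8, and the 4 at 2001 to 2003 bp had a median of 513.

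The 5 large arms held like densities of members, from 123 per Mb on X to 133 per Mb on 3L. Chromosome 4 held 1 member, a density of 5.65 per Mb, and its replicate mean was 9.41 ± 3.26 per Mb (SD, n = 3).

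Most downstream members lay inside the gene whose start site was nearest. A base downstream of a start site lies in that gene unless the gene ends first, so this follows largely from the rule. The shares below were not set against those of all eligible bases. Of the 1130 downstream members, 1006 (89.0%) lay within that gene, 39 within another gene and 85 between genes. Of the 961 upstream members, 418 (43.5%) also lay within the nearest gene, downstream of another of its start sites, 121 lay within another gene and 422 (43.9%) between genes. The 85 downstream members between genes lay beyond the end of a short gene and had a median signal of 309.6, against 374 for those within the nearest gene.

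Members kept a near-constant share of the list at every signal level, whereas promoter summits led at the top and distal summits at the bottom. The signal of a peak is a value of the authors' own and served to order peaks inside a list. The median signal was 363 for members, with 352 upstream and 367 downstream, against 398 for promoter summits and 326 for distal summits. The strongest 1016 peaks held 216 members (21.3%), against 54.3% promoter and 23.0% distal summits. The weakest 1016 held 200 members (19.7%), against 26.0% and 51.1%. Over 10 rank bins the share of members stayed between 19.3% and 21.7%. In the replicates' own lists the median rank of members was 5166, 4858 and 5048, against 4288, 4420.5 and 4375 for promoter summits and 5664, 5660.0 and 5669.5 for distal summits. Members thus ranked between the classes in each of the 3 replicates, with a difference in median rank of 663 ± 221 from promoter summits and of -640.5 ± 153 from distal summits (SD, n = 3). An exact two-sided sign-flip permutation test over 3 replicates cannot give a p below 0.25, so no such difference can pass a threshold of 0.05; both had p = 0.25 and an adjusted p of 0.370 over 71 comparisons.

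**Figure D2:**
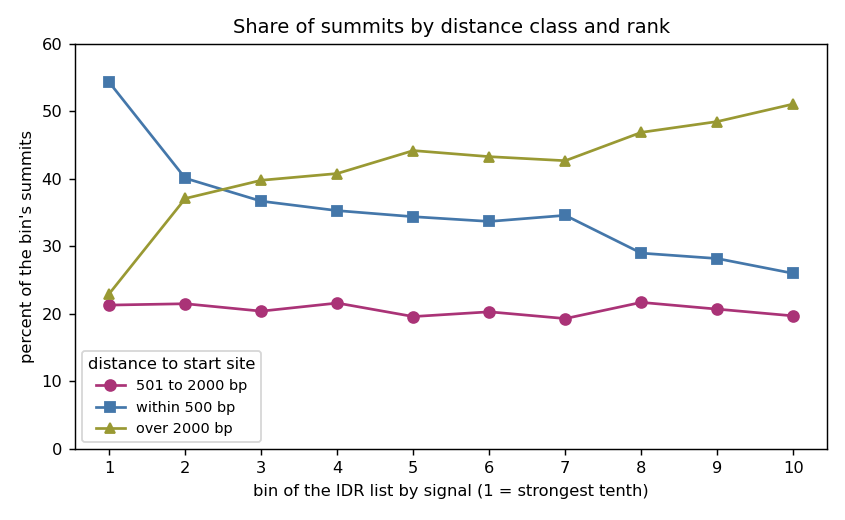
Percent of summits in each of 10 bins of the IDR list ordered by signal (horizontal axis, strongest bin first) that were members, promoter summits or distal summits (vertical axis). The member line stays between 19.3% and 21.7%, while the promoter line ends at 26.0% and the distal line at 51.1%.

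Among the strongest upstream members were those at cbt, Lk6 and jp. The cbt member lay 1369 bp upstream of cabut, a zinc finger transcription factor gene, inside its neighbour ush, and covered 2L:480562-481358. Its signal was 10548.7, the second of the whole list, and it was 2868.1, 3586.6 and 3927.1 in replicates 1, 2 and 3, where it ranked 3, 1 and 2. The replicate values are on the scale of their own lists, so the ranks are what can be set side by side, and all 3 placed it among the first 3.

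Lk6, which encodes a kinase of the translation factor eIF4E, had a member 967 bp upstream of a start site at 3R:11760844-11761455, still inside the gene. Its signal was 6196.3, and 1890.5, 1979.4 and 2336.3 in the replicates, at ranks 8, 11 and 10. The member 765 bp upstream of jp, a junctophilin gene, lay between genes at 2L:9567309-9567793, with a signal of 4859.2 and replicate ranks of 30, 32 and 29. These ranks varied by at most 3 places between replicates.

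The other 7 upstream members named by rank lay near HmgZ, an HMG-box chromatin protein gene, chif, the gene of a Dbf4-related replication regulator, CG9837, NFAT, a transcription factor gene, sp3, Reph and CG17896. Their signals ran from 4361.4 at HmgZ to 3222.7 at CG17896. The least even was sp3, with ranks 60, 140 and 63 in replicates 1, 2 and 3, signals of 1154.6, 931.8 and 1375.7, and a lower place in replicate 2.

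The strongest downstream members lay at CG11050, Trl and CG32772, each inside the gene. The CG11050 member, 1028 bp downstream of the start site at 2L:6612413-6612955, had a signal of 9988.4, and 3036.0, 3262.1 and 3830.6 in the replicates, at ranks 2, 3 and 3. Trl, which encodes the GAGA factor that binds GAGA repeats and opens chromatin, had a member 1531 bp downstream at 3L:14759292-14759753. Its signal was 6499.7, and 1922.7, 2297.4 and 2368.8 in the replicates, at ranks 7, 5 and 8. The member 1259 bp downstream at CG32772, X:4910004-4910611, had a signal of 6033.6, and 1797.8, 1913.5 and 2339.9 in the replicates, at ranks 11, 13 and 9. All 3 stood among the first 13 peaks of each replicate.

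Other downstream members of this rank lay in CG9663, CG3726, Adf1, a transcription factor gene, norpA, the phospholipase C of phototransduction, for, a cGMP-dependent protein kinase gene, and CG31635. Their signals ran from 5561.0 at CG9663 to 2836.4 at CG31635. All 20 strongest members, 10 on each side, were matched by overlap in all 3 replicates. Of these 20, 17 lay inside a gene, and 14 had a nearest gene that also carried a promoter summit. Over all members among the strongest 1016 peaks the matched share was 91.7%. Of all members, 64.5% had a nearest gene with a promoter summit, and 43.9% of upstream and 7.52% of downstream members lay between genes.

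**Figure D3:**
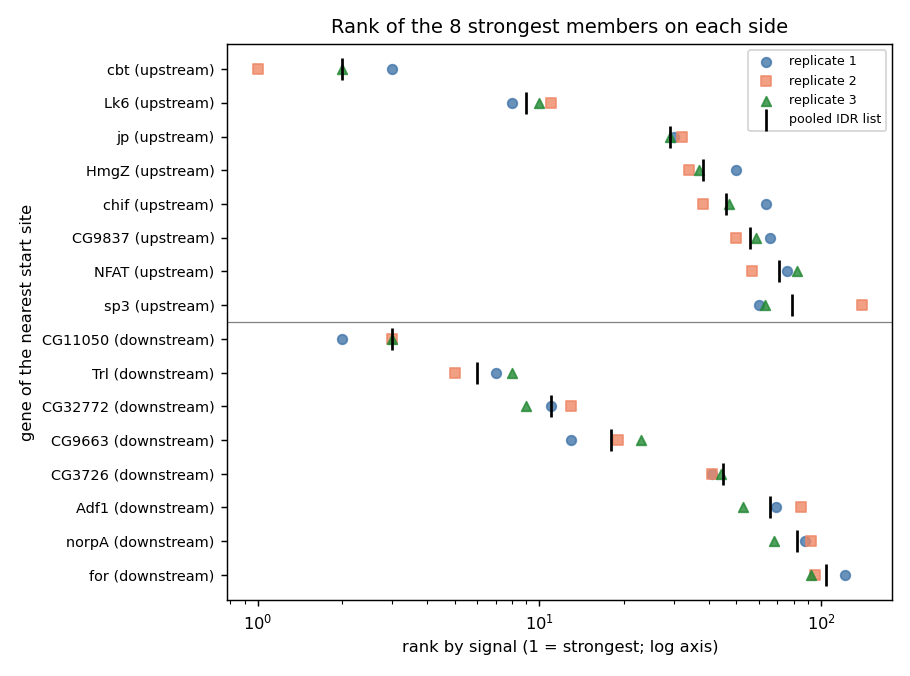
Rank by signal on a log axis (horizontal, 1 is the strongest) of the 8 strongest upstream members (above the line) and the 8 strongest downstream members (below it), labelled by the gene of the nearest start site. Coloured symbols are the 3 replicates' own lists and black ticks the pooled IDR list. The replicates lie close together for most members, and sp3 stands apart with rank 140 in replicate 2 against 60 and 63.

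Members were found again in the replicates about as often as the list as a whole. With a partner of at least 50% reciprocal overlap required among the 10160 strongest peaks of a replicate, 72.5%, 76.4% and 78.5% of members were matched in replicates 1, 2 and 3. All 3 matched 1164 members (55.7%), against 55.8% of all IDR peaks, and none matched 147 (7.03%). A summit within 100 bp was present in all 3 whole replicate lists for 1849 members (88.4%), against 88.8% of all IDR peaks. Both shares are at the background of the list and single out nothing about the members. The IDR list was derived from the same replicates, so these shares are a description.

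Matching differed between bins of signal. All 3 replicates matched 91.7% of the members among the strongest 1016 peaks and 8.50% of those among the weakest 1016. The course between was not steady, with 53.0% in the fourth bin of 1016 peaks, 77.7% in the sixth and 14.3% in the ninth. With summits within 100 bp in the whole lists the shares were 98.1% and 70.0%.

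The members were assigned to 1468 genes by nearest start site, against 13945 protein-coding genes in all (10.5%). A single member was assigned to 1071 of these genes, 2 members to 259 and 3 or more to 138, and 208 genes had members on both sides. Tlk, a Tousled-like kinase gene, and CG32264 had 7 members each. NFAT, for, tara, a transcriptional cofactor gene, CG42258, Irk1, a potassium channel gene, Sarm, an NAD hydrolase gene of axon degeneration, loco, a regulator of G protein signalling, and cnc, a bZIP factor gene, had 6 each. These 10 genes had 2 to 10 annotated start sites each, and the part of that number in these counts was not tested. The 6 members of NFAT had a median signal of 945 and ran from 748.8 to 3542.1, so none was below the median of 363 for all members. The 7 of CG32264 had a median of 267, with 1 matched in all 3 replicates.

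A member often accompanied a promoter summit of the same gene. Of the 2091 members, 1349 (64.5%) had a nearest gene with a promoter summit, and of the 1468 genes with a member 862 did (58.7%), against 25.5% of all protein-coding genes. In the replicates' own lists 64.7%, 62.0% and 65.9% of members had such a gene, against 51.9%, 49.0% and 52.4% of distal summits, a difference of 13.1 ± 0.334 percentage points (SD, n = 3, exact sign-flip permutation p = 0.25, adjusted p = 0.370). Upstream members had a promoter summit at the nearest gene in 60.3% ± 2.28 and downstream members in 67.5% ± 1.73 of cases (SD, n = 3), and the upstream share was lower in 3 of 3 replicates. With 1 start site per gene the difference from distal summits was 7.72 points. The upstream minus downstream difference of -7.17 points was -15.9 with 1 start site per gene and -3.83 in the stronger part of the lists (the peaks above the median rank).

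Members also lay closer to other summits. Another summit lay within 1000 bp of 41.6% ± 1.27 of members, against 33.8% ± 0.585 of promoter summits and 27.4% ± 0.995 of distal summits (SD, n = 3). Members were highest in each replicate (exact sign-flip permutation p = 0.25 for both differences, adjusted p = 0.370). Members lie near start sites by their rule, so promoter summits are within reach of this window.

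The genes of 26 lists of pathways, cell types and housekeeping functions were looked up among the genes with a member. Shares are read against the 10.5% of all protein-coding genes. They were not scaled for gene length or number of start sites, and no test was made of them. The share was above 10.5% in 18 lists, and 3 lists had no member.

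Genes of the transforming growth factor Dpp pathway had 15 members at 6 of 14 genes (42.9%), 11 upstream and 4 downstream, with a median signal of 426. The strongest lay 1331 bp downstream in shn, which encodes a zinc finger cofactor of the pathway's repression, at a signal of 2350.7 and replicate ranks of 209, 199 and 172. Mad, the pathway's transcriptional effector, had a member 674 bp upstream at a signal of 1134.0 and ranks of 850, 849 and 798. Both were matched in all replicates with ranks close to each other. At brk, which encodes a repressor of Dpp targets, the member had a signal of 757.5. It had a summit within 100 bp at ranks 1933 and 1911 in replicates 2 and 3, and none in replicate 1. Its interval was matched by overlap in no replicate.

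GATA factor genes and their cofactor gene ush had a member at 4 of 6 genes (66.7%), each 1 member matched in all 3 replicates. GATAd had a member 1153 bp downstream at a signal of 1214.5 and ranks of 829, 893 and 561. The ush member, 1330 bp upstream, had a signal of 846.4 and ranks of 1090, 1423 and 1743. The srp member, 1475 bp upstream of this gene of the fat body, blood and endoderm, had a signal of 380.3 and ranks of 10717, 3061 and 5699. These are the ranks of the nearest summit, and in replicate 1 a stronger peak beside it was the one that overlapped the member. Regulators of gut and visceral mesoderm had members at 4 of 10 genes, led by bin, a FoxF gene of the visceral mesoderm, at 1047.9, dve at 407.1 and fkh at 405.0. The gut list shares srp and GATAe with the GATA list.

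Epithelial polarity and junction genes had 12 members at 6 of 12 genes (a share of 50%), 3 upstream and 9 downstream. The strongest lay in cno, the gene of the junction protein Canoe, at a signal of 1825.5 and ranks of 396, 283 and 308. The next lay at dlg1, a septate junction scaffold gene, at 1029.3, and at crb, the gene of an apical membrane determinant, at 756.2. All 3 were matched in every replicate.

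Among signalling pathways, EGF receptor genes had 11 members at 6 of 15 genes (40.0%). The strongest lay upstream of aop, the gene of the repressor Yan, at 1161.1, upstream of sty, the gene of the inhibitor Sprouty, at 847.4, and downstream in S, the gene of the ligand trafficking protein Star, at 818.4. The sty member had no summit within 100 bp in replicate 2, against ranks of 1755 and 1134 for the nearest summit in replicates 1 and 3. Wingless genes had members at 5 of 17 genes (29.4%), led by the receptor gene fz2 at 630.4, the kinase gene sgg at 569.9 and the coreceptor gene arr at 441.2. Notch pathway genes had members at 3 of 12 genes, with neur, a ligase gene for ligand endocytosis, at 1536.3 and E(spl)m3-HLH, a target gene, at 478.3, followed by fng, a glycosyltransferase gene acting on the receptor, at 363.1. Hippo and fat-dachsous genes had members at 4 of 13 (30.8%), led by ds at 582.8, ex at 459.4 and ft at 412.2. The members named at E(spl)m3-HLH, ex and ft had a summit within 100 bp in every replicate but were matched by overlap in none. Their intervals were narrow, at 133, 113 and 146 bp. Hedgehog pathway genes had none at 9 genes.

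Of the homeotic genes, 1 of 8 (12.5%) had a member. It lay 1993 bp downstream in Abd-B, the most posterior homeotic gene, with a signal of 705.3, and summits within 100 bp ranked 1942, 1549 and 2229 in the replicates. Its interval of 140 bp was matched by overlap in none of them. Labial's own gene had no member. Among the Hox cofactor genes, hth, the gene of Homothorax, had 1 member 1930 bp upstream at a signal of 303.6, with ranks of 7783, 4767 and 8566, and the other 5 genes had none.

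Neuronal genes had members at 4 of 9 (44.4%), with elav, a neuronal RNA-binding protein gene, at 1337.5, Syt1, the synaptic calcium sensor gene, at 1032.2 and the syntaxin gene Syx1A at 655.2. Glial genes had 10 members at 3 of 6 (50%), led by loco at 789.8, pnt at 338.5 and nrv2 at 328.7. Ecdysone response genes had members at 5 of 11 (45.5%) with a median signal of 222, the strongest at Hr4 with 419.4, Eip75B with 313.0 and Eip78C with 223.7. Muscle genes had 2 of 11 (18.2%), Tm1 at 323.7 and Mef2 at 202.8. Polycomb group genes had 3 of 15 genes, with ph-d at 1956.3, ph-p at 1514.9 and Su(z)2 at 211.9. Trl and psq were the 2 of 10 genes in the list of GAGA factor, insulator and DREF genes, psq at 672.0, and Hsp83, a chaperone gene, was the 1 of 8 among heat shock genes at 1936.4. Members were at 1 of 9 trachea and salivary gland genes, CrebA at 420.6, and 1 of 14 neuroblast genes, grh at 281.0. Of 11 head patterning genes 1 had members, cnc with a strongest signal of 695.2. The members named at Syx1A and CrebA had a summit within 100 bp in every replicate but were matched by overlap in none. Their intervals were narrow, at 124 and 174 bp.

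Gap and pair-rule genes had no member at 13 genes, and mitochondrial ribosomal protein genes none at 73. Among cytosolic ribosomal protein genes 1 of 92 (1.09%) had a member, RpS23 with a strongest signal of 670.1, although 75 of the 92 (81.5%) had a promoter summit. Chemosensory receptor genes had members at 3 of 179 (1.68%), Gr89a at 1049.4, Or10a at 314.0 and Or45b at 206.7. Cuticle protein genes had them at 4 of 95 (4.21%), led by Cpr76Ba at 1270.1, Cpr67Fb at 313.1 and Cpr100A at 309.2. Promoter summits were rare in both lists, at 2 of 179 chemosensory (1.12%) and 1 of 95 cuticle genes (1.05%). The 7 chemosensory and cuticle genes with a member had none, which is at the level of their lists.

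The bases around the member summits were searched for 18 motifs on both strands within 100 bp, and compared with the mean of windows of the same 201 bp centred 500 bp to either side. The windows beside the summits were placed by distance alone and can hold exons, whereas member summits and the tiled windows below were kept off them. The searched letters were TGATTGAT and TGATGGAT (Exd-Lab site), TGATTAAT (Exd-Dfd/Scr type site), TAATTA (homeodomain core) and, for the cofactor Homothorax, TGACAG (Hth site), TATCGATA (DRE), GGTCACACT (Motif 1 core), CAGGTAG (Zelda site), CAGGTG (Snail-type E-box), CACGTG (an E-box), CAGCTG (another E-box), TGACTCA (AP-1 type site), AACCGGTT (Grh site), ATCAAAG (Tcf site), TGTGGGAA (Su(H) site), CACACACA (CA repeat) and GGCGCC (Brk-type site). For GATA factors the letters were AGATAA or else TGATAA, and for the GAGA factor a repeat written GAGAGAG. Matches describe the sequence and do not show that a factor was bound.

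Exd-Lab sites were more frequent at the member summits than beside them. They were found at 3.95%, 3.72% and 4.35% of summits in replicates 1, 2 and 3, against 1.78%, 1.68% and 2.13% of the windows beside them, and 2.28% of the 81479 windows of the same length tiled over all sequence at this distance from a start site and off exons. The mean was 4.01% ± 0.321 against 1.87% ± 0.233, a 2.16-fold difference (± 0.0963, SD, n = 3), and the 2 sets of replicates did not overlap. GATA sites were found at 36.4% ± 0.719 of summits against 26.4% ± 0.863 beside them and 25.5% of tiled windows, a 1.38-fold difference with no overlap. The exact sign-flip permutation test gave p = 0.25, the smallest possible, and an adjusted p of 0.300 over 18 motifs for both.

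The Exd-Dfd/Scr type site was found at 2.45% ± 0.190 of summits against 1.45% ± 0.145 beside them, 1.71-fold, and the homeodomain core at 15.6% ± 0.486 against 13.3% ± 0.551, 1.18-fold, with the same exact adjusted p of 0.300 (SD, n = 3). Tiled windows held them in 1.88% and 15.6%, so the homeodomain core at the summits was at the level of the tiled windows. These sites are AT-rich or nearly so, and the summits had 38.2% ± 0.531 GC against 41.2% ± 0.195 beside them (SD, n = 3); the part of base composition in these results was not tested. The Hth site, at 7.01% ± 0.113 of summits against 6.79% ± 0.129 beside them and 7.79% of tiled windows, was lower at the summits than beside them within 50 bp and within 200 bp of the summit.

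GAGA repeats, DRE, Motif 1, the 3 E-boxes, Grh, Su(H) and CA repeats were less frequent at member summits than beside them in all 3 replicates. Matches of DRE, Motif 1 and Grh were few, in 7, 3 and 7 of the 2091 members of the IDR list. GAGA repeats were found at 4.65% ± 0.135 of summits, against 6.18% ± 0.212 beside them and 2.86% of tiled windows. The lower share of GAGA repeats was on the upstream side only, with 3.63% ± 0.187 at upstream summits against 7.39% ± 0.139 beside them. Downstream summits had 5.51% ± 0.0685 against 5.17% ± 0.323 and were higher than their surroundings in all 3 replicates (SD, n = 3). The window beside a member on the side of its start site can reach the promoter. With the window on the far side alone, GAGA repeats differed by 0.0935 ± 0.211 and CA repeats by 1.37 ± 0.526 percentage points, now higher at the summits (SD, n = 3). Motif 1 was also higher at the summits with that window. CAGCTG was found at 7.59% ± 0.0585 against 8.97% ± 0.135 beside the summits (SD, n = 3). Within 200 bp of the summit GAGA repeats, CAGCTG and CA repeats were higher at the summits than beside them.

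**Figure D4:**
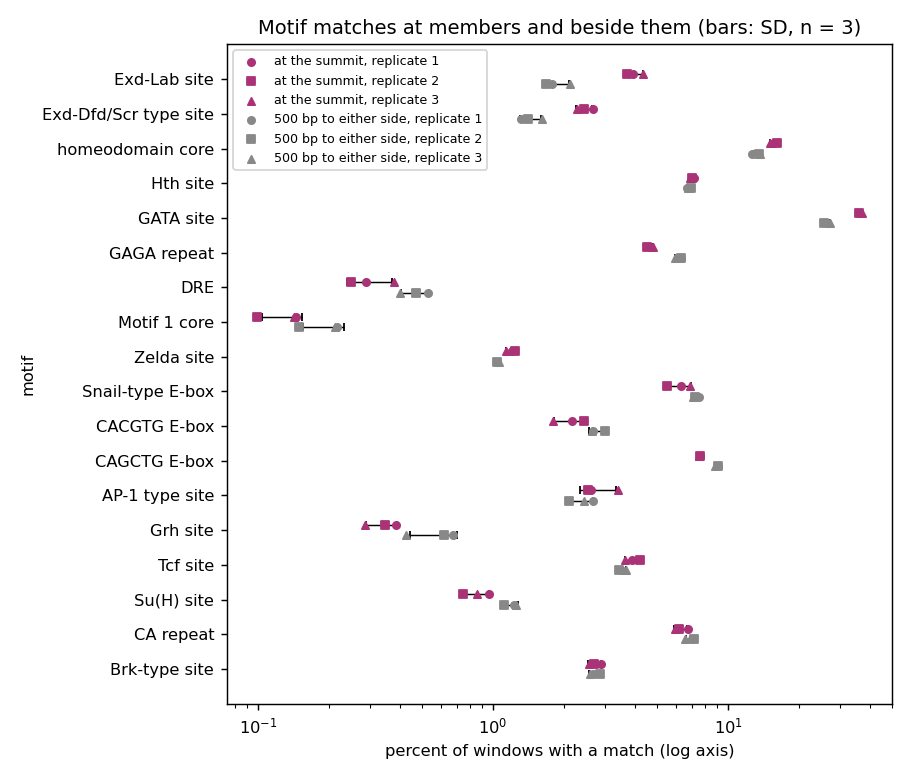
Percent of 201 bp windows with a match to each of 18 motifs on a log axis (horizontal), at member summits (purple) and 500 bp to either side (grey). Symbols are the 3 replicates and bars the SD around their mean. The symbols are separate for the Exd-Lab site (4.01% against 1.87%) and the GATA site (36.4% against 26.4%).

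The share of members with an Exd-Lab site had no steady course along peak strength. With the members split by signal into 5 sets of 418 or 419, from the strongest to the weakest, 2.39%, 4.55%, 4.31%, 7.18% and 2.63% of summits held a site, against 2.27%, 1.44%, 1.67%, 1.67% and 2.63% of the windows beside them. The strongest and the weakest set were thus at the level of their surroundings, while the 3 sets between stood above it. Only 10 of the 419 strongest members held a site, against 30 of the 418 in the next to last set. GATA sites were at 33.7%, 39.2%, 37.1%, 40.0% and 34.9% in the same sets, each above the 25.9%, 28.1%, 24.2%, 23.9% and 29.2% beside them.

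The 88 members with an Exd-Lab site were 32 upstream and 56 downstream, at 86 genes. Their median signal was 322, against 363 for all members, and the median distance of the site from the summit was 46 bp. A GATA site was also present in 49 of the 88 (55.7%), against 773 of all 2091 members (37%), and in 7 of these it shared bases with the Exd-Lab site. All 3 replicates matched 47 of them (53.4%), against 55.8% of all IDR peaks, and 82 (93.2%) had a summit within 100 bp in all 3, against 88.8%. Among those whose site and flanks lay off arm 2R and off untranslated exon bases, the Lk6 member was the strongest. The next was at Girdin, the gene of an actin-associated protein, 745 bp downstream of its start site, with a signal of 1377.1 and signals of 463.5, 449 and 461.6 at ranks 459, 605 and 714 in the replicates. The member downstream of hog lay inside the neighbour NetB, a netrin gene, with a signal of 1372.7 and ranks of 640, 786 and 430. The PGRP-SA member, upstream of a gene for a bacterial recognition protein, had a signal of 1066.5 and ranks of 1354, 932 and 771. The Tsp97E member, inside a tetraspanin gene, had a signal of 1044.7 and ranks of 1097 and 986 in replicates 1 and 3, with no summit within 100 bp in replicate 2. The Syt1 member ranked 1017, 1635 and 678, with replicate 2 the weakest.

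Set against the other distance classes, members carried Exd-Lab sites more often than promoter summits in every replicate. The share was 4.01% ± 0.321 in members, against 1.70% ± 0.165 at promoter summits and 4.15% ± 0.401 at distal summits (SD, n = 3). The difference from promoter summits was 2.31 ± 0.233 percentage points with no overlap between replicates (exact sign-flip permutation p = 0.25, adjusted p = 0.370 over 71 comparisons). That from distal summits was -0.143 ± 0.137 points (exact p = 0.5, adjusted p = 0.623), below the spread between replicates of either class. In the stronger part of the lists the difference from promoter summits was 1.52 ± 0.467 points and that from distal summits -0.586 ± 0.252 points (exact p = 0.25 for each), and each kept 1 sign in all 3 replicates. GATA sites were more frequent in members than in either class, with 36.1%, 35.9% and 37.2% in the replicates, against 28.5%, 26.9% and 28.5% at promoter summits and 31.9%, 31.3% and 32.1% at distal summits. These shares did not overlap between classes (exact p = 0.25, adjusted p = 0.370 for each difference). The difference from distal summits was 4.63 points and became 2.27 ± 1.19 points with 1 start site per gene (SD, n = 3). Beside the summits GATA sites were also most frequent for members, at 26.4% ± 0.863 of windows. They were in 22.7% ± 0.184 of windows beside promoter and 23.6% ± 1.03 beside distal summits (SD, n = 3). The higher share in members was thus present in the surrounding sequence too. Nor was GATA alone in this, as 4 other motifs were above both classes in all 3 replicates. Zelda sites were in 1.19% of members against 0.721% of promoter and 0.788% of distal summits, and AP-1 type sites in 2.84% against 1.66% and 2.03%. The Exd-Dfd/Scr type site was in 2.45% against 1.34% and 2.09%, and the homeodomain core in 15.6% against 14.1% and 15.1%. GC content was 38.2% ± 0.531 in members, against 40.3% ± 0.125 at promoter and 38.0% ± 0.715 at distal summits (SD, n = 3).

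Around the summit, Exd-Lab matches in the IDR list were counted in steps of 50 bp along the plus strand. In the 50 bp before and after the summit, members had 1.15 and 1.39 matches per 100 summits, against 0.447 and 0.503 at promoter summits and 1.67 and 1.77 at distal summits. From 50 to 100 bp after the summit members had 1.53, against 0.475 and 0.872. Promoter summits were thus lowest in all 3 steps, in the IDR list and in each replicate. Members stood above distal summits from 50 to 100 bp in each replicate, with 0.963, 1.09 and 1.14 against 0.784, 0.752 and 1.05, values all below the 1.53 of the IDR list. In the 50 bp before the summit they stood above distal summits in replicate 2, with 1.24 against 1.21, and below them in the other lists. These differences were not tested.

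**Figure D5:**
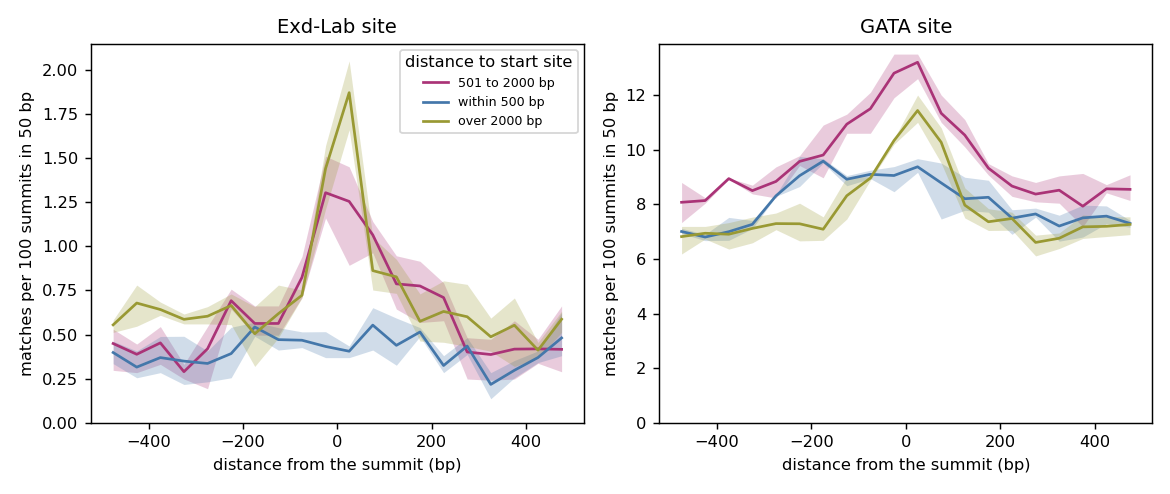
Matches per 100 summits in steps of 50 bp (vertical axis) by distance from the summit along the plus strand (horizontal axis), for the Exd-Lab site and the GATA site in members, promoter and distal summits. Lines are means of the 3 replicates' own lists and bands their range. Exd-Lab matches peak at members and distal summits but not at promoter summits, and GATA matches are highest at members.

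Core promoter elements were rare in members. Members lie more than 500 bp from every protein-coding start site by their rule, so a lower share than at promoter summits was set in advance. Tiled windows at the same distance held DRE in 0.476% and the Motif 1 core in 0.0859%. DRE was found in 0.305% ± 0.0668 of members, against 5.06% ± 0.425 of promoter and 0.498% ± 0.00969 of distal summits, and the Motif 1 core in 0.129% ± 0.0255, against 3.00% ± 0.425 and 0.233% ± 0.0163 (SD, n = 3). CAGCTG was found in 7.59% ± 0.0585 of members, against 13.1% ± 0.216 of promoter and 7.36% ± 0.594 of distal summits. GAGA repeats were found in 4.65% ± 0.135 of members, between 7.62% ± 0.705 of promoter and 3.16% ± 0.269 of distal summits. The differences from promoter summits had the same sign in all 3 replicates for the 4 motifs, with p = 0.25 in the exact sign-flip permutation test and an adjusted p of 0.370. With 1 start site per gene the GAGA repeat difference of -2.97 points was -0.147 ± 0.399 points (SD, n = 3, exact p = 0.75) and did not keep 1 sign over the replicates.

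Upstream members held Exd-Lab sites and GAGA repeats less often than downstream members in every replicate. Exd-Lab sites were in 3.25%, 3.00% and 3.58% of upstream members in the replicates, against 4.54%, 4.34% and 4.98% of downstream members, with no overlap. In the IDR list 32 of 961 upstream and 56 of 1130 downstream members held a site. GAGA repeats were in 3.67%, 3.43% and 3.79% of upstream members, against 5.52%, 5.44% and 5.58% of downstream members, also with no overlap. Both differences had an exact sign-flip permutation p of 0.25 and an adjusted p of 0.370. With 1 start site per gene the Exd-Lab difference shrank to -0.205 percentage points, against -1.34 with every start site, and it was -0.194 in the stronger part of the lists. The GAGA repeat difference was -1.88 points and was larger, with the same sign, with 1 start site per gene. GATA sites were in 35.4% ± 0.371 of upstream and 37.3% ± 1.20 of downstream members, and the median rank was 4995 ± 207 upstream and 5048 ± 116 downstream, a difference below the spread (SD, n = 3).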

How the data were processed

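Peaks of anti-GFP ChIP-seq on 3 biological replicates were taken as deposited. Per the file descriptions, peaks and background of each replicate were called on its dm6 alignments with a control, and the optimal IDR list was thresholded from these and a pooled list. The peak signal and the −log10 q-value are the authors' values as deposited; the q-value reached its maximum of 4.15 in 69.4% of members, so peaks were ranked by signal. Neither aligner nor caller nor IDR cutoff is stated in the labels or file descriptions, and read depth is unknown; intervals cover counting error only. The pooled list before thresholding and the dm3 lists were not used.

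Summits were placed on dm6 and assigned to the nearest protein-coding start site of any transcript (Ensembl release 115, NCBI Release 6 sequence; 13945 genes on the 6 arms). Each replicate list of 30000 was limited to its 10160 strongest peaks. Coordinates are 1-based. Means and SD are over the 3 replicates. The replicate lists share many peaks, so the spread of motif shares is between lists and does not measure the sampling of sites. Differences within replicates were tested with the exact two-sided sign-flip permutation test and adjusted by the Benjamini-Hochberg method over 71 class differences and 18 motifs; peaks are not replicates.

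Members, lists and motifs were chosen with earlier results of these data known. Named genes are those of the 10 strongest members on each side (1 is not reported here), up to 3 per list by strongest member, those at the distance limits and those with the most members. In the lists, Dl, d and calypso were read as Delta, dachs and caly. Alternatives changed start sites, window, overlap, motif and control windows, peak number and replicates. Nearest distances and overlaps were checked against bedtools 2.31.1 with 0 differences over 5000 and 10160 peaks; 0 of 200 planted sites and 0 of 8278 planted sides were missed. Python 3.11.15, numpy 2.4.6, pandas 2.3.3, scipy 1.17.1 and matplotlib 3.10.9 were used.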

Additional observations from a re-analysis of the deposited data

How the results depend on the processing

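No paired analysis was possible between groups of samples because the 3 replicates form 1 group, and class differences were taken within each replicate. With 1 start site per gene, members were 16.3% of summits and 35.6% of them lay upstream; with exonic summits kept the values were 22.1% and 44.7%. The window of 501 to 1000 bp held 895 members (8.81%, 51.5% upstream), and the stronger part of the list (the peaks above the median rank) 1059 (44.9% upstream). Members found in all 3 replicates made up 32.5% at 80% reciprocal overlap, 64.5% with summits within 100 bp, 52.4% in the stronger part, and in the whole lists 80.1% at 50% overlap, 52.1% at 80% overlap and 88.4% with summits within 100 bp. With 2 replicates in place of 3 they made up 61.4% to 64.5%. A promoter window of 250 bp left 53.1% of members with a promoter summit at the nearest gene.

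Of 349 alternative values of 59 signed results, 29 changed sign, 11 of them in results that had the same sign in all replicates. For upstream minus downstream, the median rank differed by 345 with 1 start site per gene, and leaving out a replicate gave -87.2 to 0.5. In the stronger part the replicate match differed by 3.60 points and neighbouring summits by 0.139. The homeodomain core differed by -0.509 and -0.00679 points, DRE by -0.0680 and -0.213, and Motif 1 by 0.129 and 0.0837, with 1 start site per gene and in the stronger part in turn. Leaving out a replicate gave -0.107 to 0.159 for DRE and -0.976 to 0.199 for CAGCTG. For members minus distal summits, the stronger part gave -0.185 for GC and -0.179 for the homeodomain core, and leaving out a replicate gave -0.140 to 0.449 for CAGCTG.

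At member summits minus beside them, Hth sites differed by -0.257 points within 50 bp, -0.485 within 200 bp and -0.132 with the control on the far side. Within 200 bp GAGA repeats differed by 0.710, CAGCTG by 0.468 and CA repeats by 0.268. With the control on the far side GAGA repeats differed by 0.0935, Motif 1 by 0.113 and CA repeats by 1.37. The Brk-type site differed by -0.400 within 50 bp, -0.300 within 200 bp, -0.508 against windows 1000 bp away and -0.144 in the stronger part, and leaving out a replicate gave -0.0985 to 0.0966. The causes were not tested. Exd-Lab and GATA differences from the windows beside the summits and from promoter summits kept their sign under every alternative run. Depth is unknown, 3 replicates cannot pass 0.05; embryos lacking the fusion were not analysed.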
